A study of Mus musculus with 9 samples.

Results

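Expression of 10 genes of threonine breakdown, serine synthesis and folate one-carbon metabolism was followed in mouse embryonic stem (ES) cells that were Dgcr8 KO, Dicer KO or WT (wild type). The genes, Tdh, Gcat, Gldc, Shmt1, Shmt2, Mthfd1, Mthfd2, Phgdh, Psat1 and Psph, were taken by gene symbol as enzymes of these steps. Through the platform annotation 9 of the 10 were each found on 1 transcript cluster (the probe set that measures 1 gene) with no other symbol, out of 23001 transcripts counted in all. Tdh, threonine dehydrogenase, was not paired with a cluster there and was not analysed here. Dgcr8 KO cells carry an exon deletion of Dgcr8, the RNA-binding partner of Drosha, that gives a premature stop codon. Dicer KO cells lack Dicer1, which cuts the hairpins that Drosha releases. Each genotype was measured on 3 one-colour Affymetrix mouse gene arrays, from cells plated in triplicate. How many clones of each mutant were grown is not given in the sources used here, and genotype and line cannot be told apart. The study's methods call the arrays of a genotype biological replicates, while the labels speak of triplicate plates and of no separate derivations. The p-values measure the spread between these cultures, part of which may be technical.

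Serine is made from a glycolytic intermediate in 3 steps by Phgdh, Psat1 and Psph. Serine hydroxymethyltransferases then split it into glycine and a one-carbon unit carried on folate, Shmt1 in the cytosol and Shmt2 in mitochondria. Mthfd2 in mitochondria and Mthfd1 in the cytosol interconvert the folate-bound units that feed purine, thymidylate and methionine synthesis. Mouse ES cells also break threonine down to glycine and acetyl-CoA through Tdh and Gcat, and the glycine cleavage system, with Gldc as its decarboxylase, releases a further one-carbon unit from glycine. This use of threonine is a known hallmark of mouse ES cells.

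All levels are the log2 values the authors deposited. They are normalized across arrays, so differences are log2 ratios, and the 9 array medians lay between 6.49 and 6.56. The knocked-out genes were read first, as a check of the labels. Dgcr8 stood at 8.74, 8.96 and 8.86 on the Dgcr8 KO arrays against 9.76, 9.81 and 9.82 on the WT arrays. Dicer1 stood at 8.33, 8.43 and 8.32 on the Dicer KO arrays against 10.18, 10.18 and 10.23 on the WT arrays. The 10 ES cell markers examined averaged 11.6 on each array of both mutants and 11.3 to 11.4 on the WT arrays, and 15 fibroblast and feeder markers averaged 6.05 to 6.24 in Dgcr8 KO, 6.03 to 6.10 in Dicer KO and 6.07 to 6.23 in WT. Against WT, 6 ES markers were higher and 1 lower in each mutant. Dgcr8 KO cells had 2 fibroblast markers above WT and 0 below, and Dicer KO cells had 0 above and 1 below. Of 10 primitive endoderm markers Dgcr8 KO cells had 2 above and 2 below WT, and Dicer KO cells 1 above and 3 below. Of 11 early differentiation markers Dgcr8 KO cells had 1 above and 3 below WT, and Dicer KO cells 2 above and 4 below. By the same calls, 15.7% of all transcripts were above and 17.3% below WT in Dgcr8 KO. In Dicer KO 17.8% were above and 19.1% below. The part of any of these marker differences in the results on the enzymes was not tested. In whole cultures, fewer cells of a type and less RNA per cell cannot be told apart.

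Most of the measured enzymes were lower in the mutants than in WT. In Dgcr8 KO 7 of the 9 were lower and 1 was higher than in WT at a Benjamini-Hochberg adjusted p under 0.05 from limma, while 17.3% of all transcripts were lower and 15.7% were higher. In Dicer KO 5 were lower and 1 was higher, while 19.1% of all transcripts were lower and 17.8% were higher. The group means of the 9 lay above those of 62.6% to 96.9% of transcripts, and dim transcripts were called less often. Without the dimmest 25% of transcripts, 4163 of 17251 were lower and 3641 higher in Dgcr8 KO. In Dicer KO 4456 were then lower and 4169 higher. The median log2 ratio of the 9 was -0.40 in Dgcr8 KO, beside -0.01 over all transcripts, and -0.32 in Dicer KO, beside -0.06 over all transcripts. Both comparisons use the same WT arrays. Shmt2 was the member that was higher, in each mutant. In the plot of levels by array, Gldc, Shmt1, Mthfd1, Mthfd2, Phgdh and Psat1 lay below WT in both mutants with no overlap of arrays, although Psat1 was not called in Dicer KO. The share of all transcripts separated in this way is not given here, so the separation only describes these arrays and does not set these enzymes apart.

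**Figure D1:**
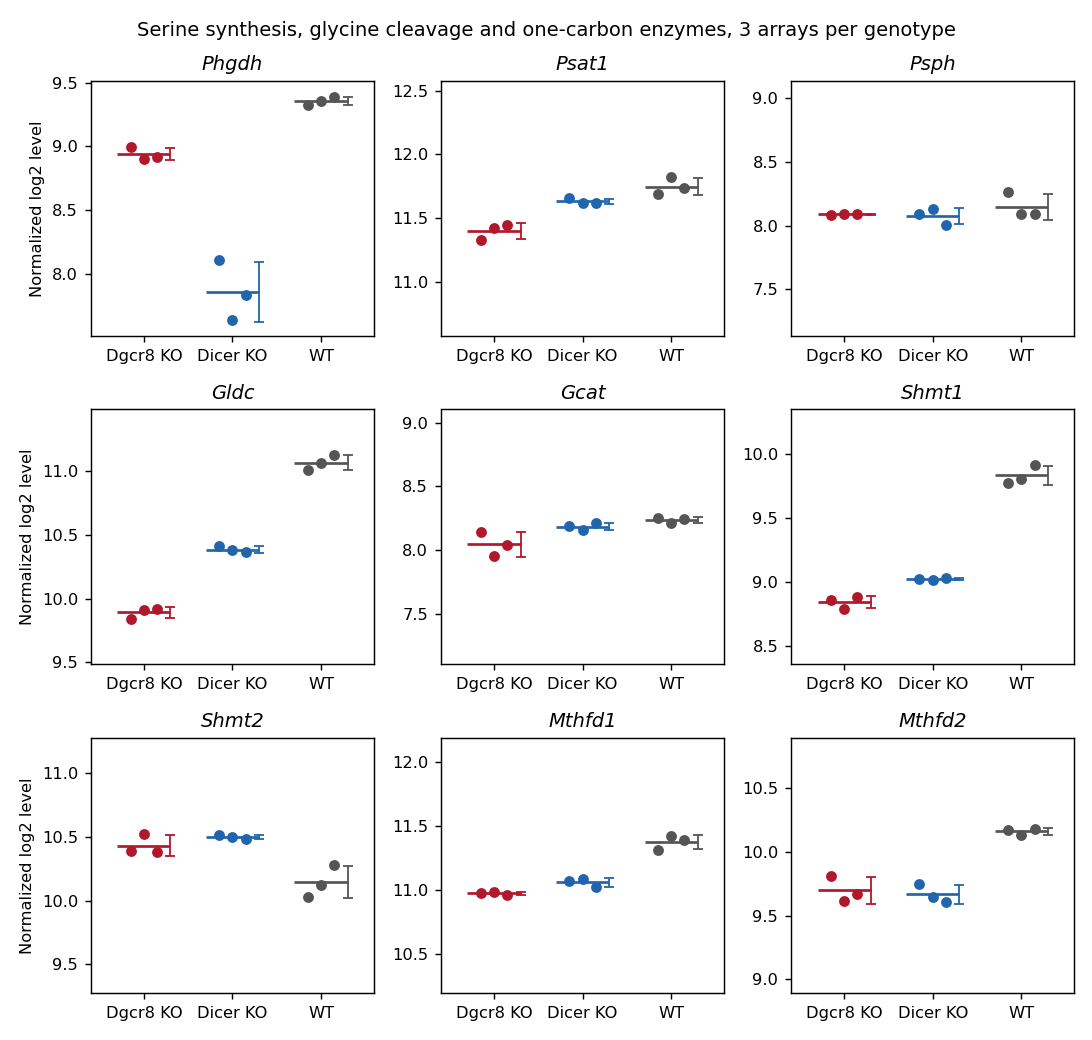
Normalized log2 level (vertical axis, each panel spanning the same range of 2 log2 units) of the 9 measured enzymes in Dgcr8 KO, Dicer KO and WT ES cells, with 1 point per array, a line at the mean and a bar of 1 SD (n = 3 arrays). Phgdh was lowest in Dicer KO, at 7.86 ± 0.24 against 9.35 ± 0.03 in WT, and Shmt2 lay above WT in both mutants.

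Of the 3 serine synthesis enzymes, Phgdh was lower than WT in both mutants, Psat1 was lower in Dgcr8 KO, and Psph was not called. Phgdh (chromosome 3, 98313171 to 98339969 on GRCm38.p6), phosphoglycerate dehydrogenase, catalyses the first and committed step. Its log2 levels were 8.995, 8.90 and 8.92 in Dgcr8 KO, 8.11, 7.64 and 7.83 in Dicer KO, against 9.32, 9.35 and 9.39 in WT. The 3 genotypes did not overlap, and the Dicer KO arrays, the lowest, were also the most scattered (SD 0.237, against 0.0491 in Dgcr8 KO and 0.0333 in WT). In Dgcr8 KO the log2 ratio of Phgdh to WT was -0.42 (standard error, SE, 0.101, adjusted p = 0.0104). In Dicer KO it was -1.50 (SE 0.101, adjusted p = 2.94e-06), which is 2.82-fold lower.

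The annotation gives a further cluster to Phgdh together with Gm6756, which RefSeq lists as a transcribed pseudogene. The accessions assigned to this cluster include those of Phgdh, so it cannot be read as Phgdh alone. Its levels were 9.48, 9.45 and 9.41 in Dgcr8 KO, 8.53, 8.42 and 8.32 in Dicer KO, against 9.66, 9.72 and 9.74 in WT. It showed the same order of genotypes as the Phgdh cluster, with log2 ratios to WT of -0.26 (adjusted p = 0.00767) in Dgcr8 KO and -1.28 (adjusted p = 2.88e-07) in Dicer KO. The call in Dgcr8 KO was lost by SAM, the permutation test of the study's methods (q = 0.0854). As run here for Dgcr8 KO against WT, SAM weighed mostly the size of a ratio, as described under processing.

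Psat1 (chromosome 19, 15905123 to 15925059) is the aminotransferase of the second step. Its levels were 11.33, 11.42 and 11.45 in Dgcr8 KO, 11.66, 11.62 and 11.62 in Dicer KO, against 11.69, 11.82 and 11.74 in WT. The Dgcr8 KO arrays were lowest and did not overlap with either other genotype. Psat1 fell by 0.35 on the log2 scale in Dgcr8 KO (SE 0.0528, adjusted p = 0.000685). In Dicer KO the log2 ratio was -0.12 (95% confidence interval -0.24 to 0.00216, adjusted p = 0.117), which was called with a mean-variance trend (adjusted p = 0.0324) or array weights (adjusted p = 0.044).

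Psph (chromosome 5, 129765558 to 129787443), the phosphatase of the last step, was not called in either mutant. It stood at 8.09 on all 3 Dgcr8 KO arrays, at 8.09, 8.13 and 8.01 in Dicer KO and at 8.26, 8.09 and 8.09 in WT. On 5 of the 9 arrays the deposited value was the same in every digit, so the 0.000479 SD in Dgcr8 KO does not give the precision of the measurement. The log2 ratios were -0.06 (95% confidence interval -0.19 to 0.08) in Dgcr8 KO and -0.07 (95% confidence interval -0.21 to 0.06) in Dicer KO. Both intervals draw on the spread of these repeated values, so they too may not give the precision of the measurement.

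Of the enzymes of glycine and threonine breakdown, Gldc was lower in both mutants and Gcat was lower in Dgcr8 KO. Gldc (chromosome 19, 30098441 to 30175441) decarboxylates glycine in mitochondria. Its levels were 9.84, 9.91 and 9.92 in Dgcr8 KO, 10.41, 10.38 and 10.36 in Dicer KO, against 11.01, 11.06 and 11.13 in WT. The 3 genotypes were fully separated, with Dgcr8 KO lowest. Against WT the log2 ratio of Gldc was -1.17 in Dgcr8 KO, or 2.26-fold lower (SE 0.0491, adjusted p = 2.38e-07), and -0.68 in Dicer KO, or 1.604-fold lower (SE 0.0491, adjusted p = 4.44e-06).

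Gcat (chromosome 15, 79030874 to 79042531) makes glycine and acetyl-CoA from the product of Tdh. Its levels were 8.15, 7.95 and 8.04 in Dgcr8 KO, 8.19, 8.16 and 8.21 in Dicer KO, against 8.26, 8.21 and 8.24 in WT. The Dgcr8 KO arrays lay below all others, and the Dicer KO and WT arrays overlapped. The log2 ratio was -0.19 in Dgcr8 KO (adjusted p = 0.0247) and -0.05 in Dicer KO (95% confidence interval -0.18 to 0.07, adjusted p = 0.517). For Dgcr8 KO the call did not hold when Dgcr8 KO replicate 2 (adjusted p = 0.076), Dgcr8 KO replicate 3 (0.0664), WT replicate 1 (0.0517) or WT replicate 3 (0.066) was left out. It also did not hold by SAM (q = 0.228), with cyclic loess (0.0577) or with those genotypes fitted alone (0.0639), and the alternatives spanned 0.00873 to 0.228.

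The promoter windows of these genes were read from RefSeq (GRCm38.p6), which held 10 windows of 300 bases for the 9 measured members, from 250 bases before to 50 after an annotated start. The motifs searched on both strands were TGATGNAA, the core of the element bound by ATF4 with C/EBP factors, and CACGTG, the E-box that Myc with Max can bind. The motifs can overlap by the letters TG, and each was counted on its own. The first was in 0 of the 10 windows and in 3.97% of 32851 windows of all genes. The E-box was in 1 of the 10 and in 7.15% of all windows. The stretch that holds it is shown because it is the only match among the members. It lies on the plus strand at chr15:79030865-79030894, and the motif, in capitals, begins at base 3 of the annotated Gcat transcript.
Gcat: cctgcccacgtCACGTGacggggagcacta
A match is a description of these letters and not a binding site. With 10 windows, neither motif's count can be told from its share over all windows. The windows of Mthfd1 and Mthfd2 lie inside the annotated bounds of these genes, so their outer ends were not searched. The GC content of the members' windows ran from 42.7% in Shmt2 to 66.7% in 1 of the Psat1 windows, with a median of 59.7% beside 52.7% over all windows. Myc itself, measured on the same arrays, stood at 7.46, 7.64 and 7.63 in Dgcr8 KO, 7.85, 7.80 and 7.86 in Dicer KO, against 10.06, 10.34 and 10.20 in WT. No mutant array reached a WT array, and the log2 ratio of Myc was -2.62 in Dgcr8 KO (adjusted p = 3.12e-08) and -2.36 in Dicer KO (adjusted p = 3.35e-08). Atf4, which induces serine synthesis genes when amino acids are scarce, had log2 ratios to WT of -0.23 (adjusted p = 0.0348) in Dgcr8 KO and -0.09 (adjusted p = 0.36) in Dicer KO. These are RNA levels, and the amount or activity of either protein was not measured. A link of Myc or Atf4 to the levels of the enzymes was not tested.

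The cytosolic and mitochondrial serine hydroxymethyltransferases went opposite ways in both mutants. Shmt1 (chromosome 11, 60788897 to 60811265), the cytosolic enzyme, stood at 8.86, 8.79 and 8.88 in Dgcr8 KO, 9.02, 9.02 and 9.03 in Dicer KO, against 9.78, 9.81 and 9.92 in WT. Both mutants lay below every WT array. Against WT the log2 ratio of Shmt1 was -0.99 in Dgcr8 KO, or 1.99-fold lower (SE 0.0517, adjusted p = 8.5e-07), and -0.81 in Dicer KO, or 1.76-fold lower (SE 0.0517, adjusted p = 1.95e-06).

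Shmt2 (chromosome 10, 127517123 to 127522444), the mitochondrial enzyme, stood at 10.39, 10.52 and 10.38 in Dgcr8 KO, 10.51, 10.50 and 10.49 in Dicer KO, against 10.03, 10.12 and 10.28 in WT. All mutant arrays lay above all WT arrays, of which replicate 3 came closest. Shmt2 rose by 0.29 on the log2 scale in Dgcr8 KO (SE 0.0695, adjusted p = 0.0101) and by 0.36 in Dicer KO (SE 0.0695, adjusted p = 0.00282). The call in Dgcr8 KO was lost by SAM (q = 0.0785).

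Both folate dehydrogenases were lower in both mutants. Mthfd1 (chromosome 12, 76254406 to 76319820) is the cytosolic enzyme with 3 activities on folate-bound units. It stood at 10.97, 10.99 and 10.96 in Dgcr8 KO, 11.07, 11.09 and 11.02 in Dicer KO, against 11.31, 11.42 and 11.39 in WT, with log2 ratios to WT of -0.40 (adjusted p = 0.000125) in Dgcr8 KO and -0.32 (adjusted p = 0.000506) in Dicer KO. The mutants lay close together and both below WT. Mthfd2 (chromosome 6, 83305704 to 83326011), its mitochondrial counterpart, is abundant in embryonic and proliferating cells. It stood at 9.81, 9.61 and 9.67 in Dgcr8 KO, 9.75, 9.65 and 9.61 in Dicer KO, against 10.17, 10.13 and 10.18 in WT. The mutants overlapped and WT lay above both, with log2 ratios of -0.46 (adjusted p = 0.000336) in Dgcr8 KO and -0.49 (adjusted p = 0.000196) in Dicer KO.

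**Figure D2:**
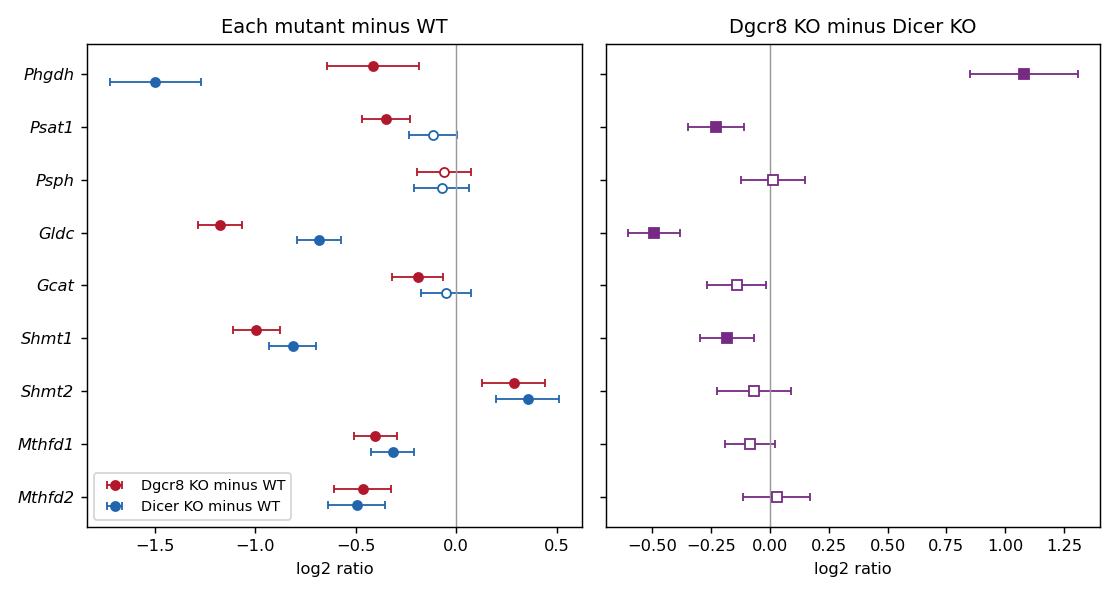
Log2 ratio (horizontal axis) of each of the 9 enzymes with its 95% confidence interval from limma (n = 3 arrays per genotype), for each mutant against WT on the left (Dgcr8 KO in red above Dicer KO in blue) and for Dgcr8 KO against Dicer KO on the right. Filled symbols have an adjusted p under 0.05, and the open ones do not; Shmt2 is the enzyme to the right of 0 in both mutants, and Phgdh is the one to the right of 0 with a filled symbol between the mutants.

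The mutants were also set against each other directly, in which the difference is taken between their own arrays and the error also draws on the spread of the WT arrays. Of the 9 members 3 were lower and 1 was higher in Dgcr8 KO, with Dicer KO as the comparison, while 13.4% of all transcripts were lower and 11.2% were higher. Higher transcripts made up 45.5% of these calls, and 32.2% with arrays centred on their medians. Phgdh stood 2.12-fold above its Dicer KO level in Dgcr8 KO, with a log2 difference of 1.08 (SE 0.101, adjusted p = 6.78e-05). The cluster shared with Gm6756 differed by 1.02 (adjusted p = 4.36e-06). Gldc stood 1.41-fold below its Dicer KO level in Dgcr8 KO, with a log2 difference of -0.49 (SE 0.0491, adjusted p = 9.87e-05). Psat1 differed by -0.23 (adjusted p = 0.0114), and by -0.14 (adjusted p = 0.0471) with repeated quantile normalization. Shmt1 differed by -0.18 (adjusted p = 0.03). The Shmt1 call was lost in each of the 5 fits without 1 of Dgcr8 KO replicates 1 and 2 or Dicer KO replicates 1, 2 and 3 (adjusted p = 0.0652, 0.0802, 0.0806, 0.0778 and 0.0832), and with cyclic loess (0.08) or repeated quantile normalization (0.135). The alternatives spanned 0.0131 to 0.135. The other 5 members were not called. The log2 differences and 95% confidence intervals were -0.14 (-0.27 to -0.02) for Gcat, -0.07 (-0.23 to 0.09) for Shmt2, -0.09 (-0.19 to 0.02) for Mthfd1, 0.03 (-0.11 to 0.17) for Mthfd2 and 0.01 (-0.12 to 0.15) for Psph. The Psph interval draws on the repeated values described above. Gcat (adjusted p = 0.1) was called without Dgcr8 KO replicate 1 (adjusted p = 0.0383) and after centring of arrays on their medians (0.0332).

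Genes next to these enzymes were measured in 7 lists, beginning with the partners of Gldc. The count in each list is to be read beside the share over all transcripts. That share was 15.7% higher and 17.3% lower than WT in Dgcr8 KO, and 17.8% higher and 19.1% lower in Dicer KO. The lists were not tested as sets. In glycine cleavage and serine or threonine breakdown, Dgcr8 KO cells had 0 of 6 measured genes above WT and 4 below, and Dicer KO cells had 1 above and 1 below. Gcsh, the lipoyl-bearing H protein that works with Gldc, was lower in both, with a log2 ratio of -1.08 in Dgcr8 KO (adjusted p = 7.68e-05) and -0.63 in Dicer KO (adjusted p = 0.002). Amt, the aminomethyltransferase of the same system, went opposite ways, with -0.19 in Dgcr8 KO (adjusted p = 0.0143) and 0.38 in Dicer KO (adjusted p = 0.000246). Dld, the dehydrogenase that completes the system and was named after its values were seen, was not called in Dgcr8 KO (-0.10) or Dicer KO (0.00438). Thnsl1 and Thnsl2, relatives of threonine synthase, were lower in Dgcr8 KO, at -0.22 for Thnsl1 and -0.32 for Thnsl2. In Dicer KO neither was called, at -0.13 for Thnsl1 and 0.08 for Thnsl2.

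Genes of folate handling moved both ways. Of 14 measured, Dgcr8 KO cells had 3 above WT and 6 below, and Dicer KO cells had 5 above and 7 below. The folate receptors were higher in both mutants. Folr1 rose by 0.85 on the log2 scale in Dgcr8 KO (adjusted p = 9.97e-07) and by 0.52 in Dicer KO (adjusted p = 1.7e-05), and Folr2 was higher in Dgcr8 KO (0.55) and Dicer KO (0.35). Slc46a1, the proton-coupled folate carrier, was not called in Dgcr8 KO (-0.01) and was higher in Dicer KO (0.56). Slc19a1, the reduced folate carrier, was lower in Dgcr8 KO (-0.48) and in Dicer KO (-0.74). A further Slc19a1 cluster, with a lower mean level, gave -0.34 in Dgcr8 KO and -0.86 in Dicer KO. Fpgs adds the glutamate tail that keeps folates in the cell, and was lower in Dgcr8 KO (-0.55) and Dicer KO (-0.43). Mtfmt, which formylates the mitochondrial initiator tRNA, was lower in Dgcr8 KO (-0.58) and Dicer KO (-0.40).

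In the methionine cycle and transsulfuration, Dgcr8 KO cells had 6 of 12 measured genes above WT and 4 below, and Dicer KO cells had 5 above and 3 below. Bhmt, named because its clusters disagreed, counts as higher in both mutants by its brightest cluster (0.23 in Dgcr8 KO and 0.60 in Dicer KO). Another Bhmt cluster was not called in Dgcr8 KO (-0.07) or Dicer KO (-0.02). A further one was not called in Dgcr8 KO (0.23) and was higher in Dicer KO (0.53). Mtr, methionine synthase, takes a methyl group from folate, and rose by 1.03 in Dgcr8 KO (adjusted p = 9.57e-07) and 0.47 in Dicer KO (adjusted p = 0.000119). The successive enzymes of transsulfuration, which makes cysteine, went opposite ways. Cbs was lower in Dgcr8 KO (-0.64) and Dicer KO (-0.89), while Cth was higher in Dgcr8 KO (0.89) and Dicer KO (0.84). Bhmt2, a homocysteine methyltransferase, was higher in Dgcr8 KO (0.47, adjusted p = 0.0399 by limma) and Dicer KO (1.07, adjusted p = 0.000403). Its WT arrays were scattered (SD 0.379) and overlapped with those of Dgcr8 KO. Mtap, which salvages methionine, was lower in Dgcr8 KO (-0.24) and Dicer KO (-0.37). Ahcyl1, related to the hydrolase of S-adenosylhomocysteine, was lower in Dgcr8 KO (-0.38) and not called in Dicer KO (0.11).

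In purine synthesis, which draws on one-carbon units, Dgcr8 KO cells had 0 of 12 measured genes above WT and 8 below, and Dicer KO cells had 1 above and 9 below. The median log2 ratio was -0.40 in each mutant. Prps2, which makes the activated ribose phosphate, had a ratio of -1.70 in Dgcr8 KO, or 3.24-fold lower (adjusted p = 4.82e-08), and -1.84 in Dicer KO, or 3.58-fold lower (adjusted p = 2.06e-08). Gart and Atic use formyl-folate in this pathway. Gart was lower in Dgcr8 KO (-0.50) and Dicer KO (-0.65), as was Atic in Dgcr8 KO (-0.65) and Dicer KO (-0.43). Adss, adenylosuccinate synthase, was not called in Dgcr8 KO (0.01) and was higher in Dicer KO (0.37).

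Of 12 amino acid carriers, most of them for neutral amino acids, Dgcr8 KO cells had 2 above WT and 6 below, and Dicer KO cells had 1 above and 7 below. Slc38a4, a sodium-coupled carrier that is imprinted in the mouse, had the largest ratio of the 7 lists, -2.44 in Dgcr8 KO (adjusted p = 1.22e-08) and -3.53 in Dicer KO (adjusted p = 1.86e-09). Slc43a1, a carrier of large neutral amino acids, was lower in Dgcr8 KO (-0.57) and Dicer KO (-1.51). Slc38a2, which takes up small neutral amino acids, was lower in Dgcr8 KO (-0.20) and Dicer KO (-0.91). The glycine transporter Slc6a9 was higher in Dgcr8 KO (0.31) and not called in Dicer KO (0.16). Slc7a3, a carrier of cationic amino acids, was higher in Dgcr8 KO (0.17) and Dicer KO (0.42).

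Of 11 tRNA synthetases, Dgcr8 KO cells had 1 above WT and 3 below, and Dicer KO cells had 0 above and 3 below. Over all transcripts 15.7% were above and 17.3% below WT in Dgcr8 KO, and 17.8% above and 19.1% below in Dicer KO. Gars, for glycine, was higher in Dgcr8 KO (0.14) and not called in Dicer KO (0.09). Tars, for threonine, was lower in Dgcr8 KO (-0.37) and not called in Dicer KO (-0.15). Wars, for tryptophan, was lower in Dgcr8 KO (-0.36) and Dicer KO (-0.26). Sars2, the mitochondrial enzyme for serine, was not called in Dgcr8 KO (-0.09) and was lower in Dicer KO (-0.41).

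Of 19 ATF4 and amino acid response genes outside the members, Dgcr8 KO cells had 4 above WT and 7 below, and Dicer KO cells had 5 above and 5 below. The shares over all transcripts were 15.7% above and 17.3% below in Dgcr8 KO, and 17.8% above and 19.1% below in Dicer KO. Chac1, which degrades glutathione, was lower in Dgcr8 KO (-0.79) and Dicer KO (-0.58). Trib3, a pseudokinase, was lower in Dgcr8 KO (-0.65) and Dicer KO (-0.54), and so was the secreted glycoprotein Stc2 in Dgcr8 KO (-0.24) and Dicer KO (-0.67). The transcription factor Atf5 was higher in Dgcr8 KO (0.97) and Dicer KO (0.49). Gpt2, a mitochondrial alanine aminotransferase, was higher in Dgcr8 KO (0.70) and Dicer KO (0.59). Sesn2, a leucine sensor, was higher in Dgcr8 KO (0.44) and not called in Dicer KO (-0.08).

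**Figure D3:**
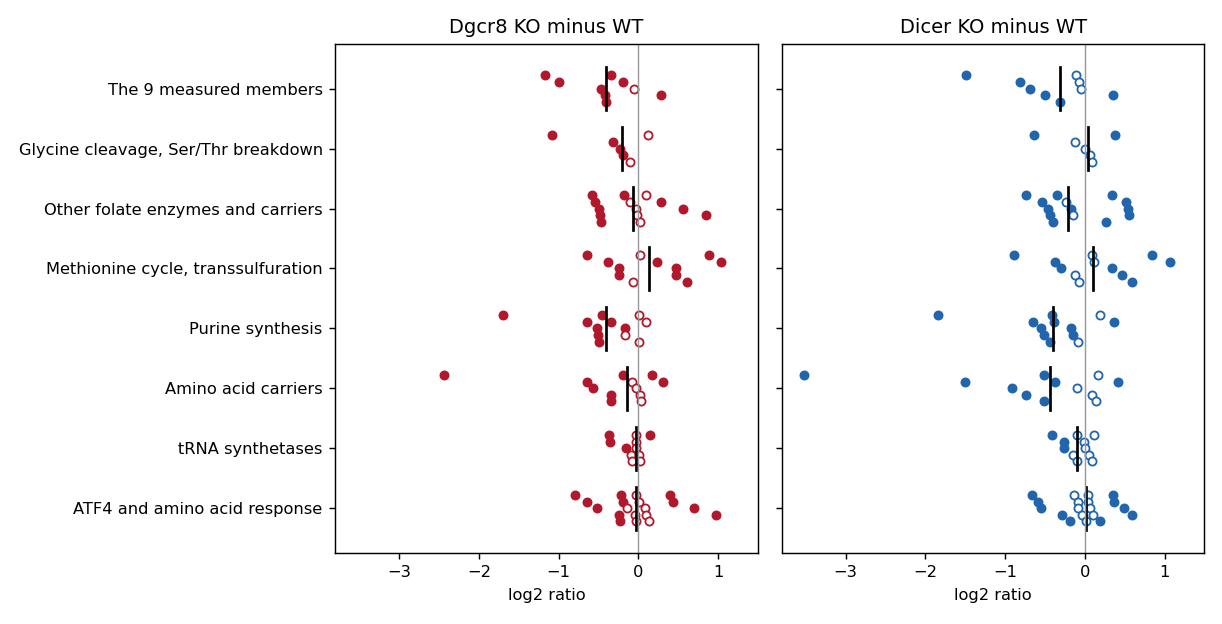
Log2 ratio to WT (horizontal axis) of each measured gene of the 9 members and of 7 neighbouring lists, in Dgcr8 KO (left, red) and Dicer KO (right, blue), with a black line at each list's median. Filled points have an adjusted p under 0.05 by limma; the medians of the members are -0.40 in Dgcr8 KO and -0.32 in Dicer KO, those of purine synthesis are -0.40 in each mutant, and the point farthest left is Slc38a4.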

How the data were processed

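Levels were taken from 1 table of log2 values, which the authors normalized across arrays and deposited as 1 value per transcript cluster and array. The paper names RMA and the submitters' processing notes name GCRMA; the version is not given in the sources used here, and which of these made the values is unknown. The values were used as deposited. The table holds no background signal, so detection per array could not be given, and 3 arrays per genotype set the precision.

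Clusters were named through the platform annotation, and gene positions were read from RefSeq (GRCm38.p6). Of 35557 clusters, 12147 without a symbol, 326 of miRNAs only, 5 mitochondrial and 78 of chromosome Y were left out, which left 23001. A gene with several clusters was counted by the one with the highest mean. Of 96 genes in the neighbouring lists, 86 had a cluster of their own.

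With R 4.3.3 and limma 3.58.1, the 9 arrays were fitted with 1 mean for each genotype (lmFit, eBayes, 6 residual degrees of freedom), with Benjamini-Hochberg adjustment over the 23001 transcripts and calls at an adjusted p under 0.05. The study's test, SAM, rewritten from its description with 20 label permutations, was 1 of 22 alternatives. The code was tested on simulated data. The members and lists were chosen with earlier results of these data known. Named were all members, Dgcr8, Dicer1, Myc and Atf4, and in each list at most 3 called genes per direction with the largest log2 ratio to WT in either mutant; a search for genes with a pattern like Tdh could not be run.

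Same-numbered arrays of different genotypes did not deviate together in all pairs, so replicate numbers were not taken as pairs.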

Additional observations from a re-analysis of the deposited data

Results flagged for a closer look

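The effects of the 2 mutations relative to WT differed, by the direct contrast of Dgcr8 KO minus Dicer KO in limma (adjusted p under 0.05), for 4 of the 9 enzymes and for 22 of the 35 genes named from the neighbouring lists. Those 35 were named for their large ratios to WT. Over the whole lists 37 of 86 measured genes differed between the mutants, and of all transcripts 11.2% stood above and 13.4% below their Dicer KO level in Dgcr8 KO. Without the dimmest 25% of transcripts, 2623 of 17251 stood above and 3343 below. Among the enzymes the log2 difference was 1.08 for Phgdh, 1.02 for the cluster that Phgdh shares with Gm6756, -0.49 for Gldc, -0.23 for Psat1 and -0.18 for Shmt1.

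Among the carriers it was 1.09 for Slc38a4, 0.935 for Slc43a1, 0.71 for Slc38a2 and -0.25 for Slc7a3. In glycine cleavage and threonine breakdown it was -0.57 for Amt, -0.45 for Gcsh and -0.40 for Thnsl2. In folate handling it was -0.57 for Slc46a1, 0.33 for Folr1 and 0.26 for Slc19a1 (0.52 for its further cluster). In the methionine cycle it was -0.60 for Bhmt2, 0.57 for Mtr and -0.495 for Ahcyl1, and in purine synthesis -0.355 for Adss, -0.22 for Atic and 0.155 for Gart. It was 0.32 for Sars2 and -0.22 for Tars. Of the ATF4 list it was 0.52 for Sesn2, 0.49 for Atf5, 0.43 for Stc2 and -0.21 for Chac1. Amt was the named gene that was called in opposite directions in the 2 mutants.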

How the results depend on the processing

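The 22 alternatives left the direction of every call on the 9 enzymes as it was. The log2 difference between Dgcr8 KO and Dicer KO turned sign for enzymes that were not called: Mthfd2 gave -0.0241 with each array centred on its median, -0.0273 without Dgcr8 KO replicate 1 and -0.00169 without Dicer KO replicate 3, Psph gave -0.04 with centred arrays and -0.0205 without Dicer KO replicate 3, and Shmt2 gave 0.0111 with repeated quantile normalization. Without 1 array Mthfd2 spanned -0.0273 to 0.0725 and Psph -0.0205 to 0.0409. With at least 1.5-fold required, 2 enzymes were called in Dgcr8 KO against WT, 3 in Dicer KO against WT and 1 between the mutants (8, 6 and 4 without that requirement); over all transcripts 1268 were then higher and 815 lower in Dgcr8 KO, 1650 higher and 849 lower in Dicer KO, and 509 and 629 between the mutants. At an adjusted p under 0.01, 5 were called in Dgcr8 KO and 2 between the mutants. Over all transcripts 2789 were then higher and 2829 lower in Dgcr8 KO, and 1416 higher and 1977 lower between the mutants. Without 1 array, 7 to 8, 6 to 6 and 3 to 4 enzymes were called. Of the 23001 transcripts, 3212 to 3628 were then higher and 3344 to 4266 lower in Dgcr8 KO against WT. In Dicer KO against WT 3590 to 4080 were higher and 3569 to 4371 lower, and between the mutants 1884 to 3001 and 2302 to 3566. The median log2 ratio of the 9 in Dgcr8 KO was -0.319 by repeated quantile normalization, -0.334 by cyclic loess and -0.432 to -0.378 without 1 array. In Dicer KO it was -0.27 with centred arrays and -0.347 to -0.293 without 1 array. Between the mutants (-0.0852) it was -0.0158 by quantile normalization, -0.0359 by cyclic loess, -0.139 with centred arrays and -0.105 to -0.0704 without 1 array. Centring moved the share of higher calls over all transcripts between the mutants to 32.2%, beside 45.5%. With the replicate number as a block, 8, 6 and 4 enzymes were called, and the block changed no call on them. Over all transcripts 3613 were then higher and 3926 lower in Dgcr8 KO against WT. In Dicer KO against WT 4085 were higher and 4458 lower, and between the mutants 2621 and 3039. Same-numbered arrays deviated together with r of -0.2 to 0.344 over 9 pairs, and 3 of 9 arrays correlated best with their own number.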
